A study of Mus musculus musculus x Mus musculus castaneus with 7 samples.

Results

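The smooth muscle contractile genes examined here were 10 of the 24393 genes of the deposited expression table, chosen by symbol: Acta2, Actg2, Acta1, Cnn1, Tagln, Myl9, Myh11, Tpm1, Tpm2 and Lmod1. All 10 had a row. They were followed through the reprogramming of female mouse embryonic fibroblasts to induced pluripotent stem cells (iPSCs), in a study of how random X inactivation is erased. The fibroblasts came from a Mus musculus musculus x Mus musculus castaneus cross and carried an X-linked GFP reporter. They received the transcription factors Oct4, Sox2, Klf4 and cMyc from a doxycycline-inducible lentiviral cassette, with the M2rtTA activator on a second lentivirus, and were sorted for a uniform state of the reporter before induction. Each of 7 groups was 1 RNA-seq library: an intermediate of Day 2, intermediates of Days 8, 10, 13 and 15 sorted for the surface glycan SSEA1, iPSCs sorted for SSEA1 and GFP, and female embryonic stem cells (ESCs, labelled F121) sorted for both. The 5 intermediates were kept with 2 µg/ml doxycycline and with ascorbic acid in serum medium with LIF. The iPSCs came from picked colonies from which doxycycline and ascorbic acid were withdrawn. The label of the Day 2 library names no SSEA1 sort. With 1 library per group there was no spread between replicates, so no test was run and each difference is between 2 libraries.

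Smooth muscle cells contract when myosin filaments pull on actin filaments. Phosphorylation of the regulatory light chain switches the myosin on, and tropomyosin, calponin and transgelin lie along the actin. Most of these genes are activated by serum response factor (SRF) together with myocardin or the related factors MRTF-A and MRTF-B. Cultured fibroblasts also make smooth muscle actin when they take on the contractile state called the myofibroblast, so the genes mark a state as well as a lineage.

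The 10 genes took 1.51% of all assigned reads at Day 2. In the later libraries they took 0.0378% on Day 8, 0.0359% at Day 10, 0.0347% on Day 13, 0.0530% on Day 15, 0.0214% in iPSCs and 0.0196% in ESCs. Mitochondrial genes took 20.9% of the assigned reads in ESCs and between 1.72% (Day 2) and 5.61% (Day 15) in the other libraries. Among the reads left without them the share was 0.0248% in ESCs and 0.0221% in iPSCs, so the order of these 2 depends on the denominator. Tpm1 made up between 55.9% (ESCs) and 83.2% (iPSCs) of the genes' reads in the 6 later libraries, and Acta2 made up 56.4% at Day 2. Without Acta2 the share was between 0.0147% (ESCs) and 0.0492% (Day 15) in the later libraries and 0.658% at Day 2. In bulk RNA, fewer cells of a type and less RNA per cell cannot be told apart.

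Values below are normalized counts, which are reads divided by the size factor of the library. Intervals are 95% counting intervals and do not cover variation between cultures. Assigned reads ranged from 15370903 (iPSCs) to 57021069 (Day 15). Pou5f1, the gene of Oct4, had 18033 normalized counts at Day 8 and 0 reads at Day 2, so the Day 2 library is not known to hold cells with the vector switched on. Wherever Day 2 is the baseline, time, sorting and vector induction cannot be told apart. Of genes that were strongly expressed in the 6 other libraries, at 8 or more on the log2 scale, 1.67% had no read at Day 2 and 2.13% none at Day 8, against 0.0299% or less in the remaining 5. Whether these values of 0 are missed or absent transcripts was not tested, which limits each value of 0 at Days 2 and 8. The fibroblast marker list, which holds the collagen genes Col1a1 and Col1a2, summed to 874847 normalized counts at Day 2 with all 11 genes above 0.

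Reads of near-identical genes can be exchanged in alignment, which bears first on the 3 actins. Their last 90 coding bases, stop codon included, are shown here to let the reader judge how far a read can tell them apart. They are from the GENCODE M21 transcripts on GRCm38, on the minus strand, at chr19:34241667-34241756 (Acta2), chr6:83512985-83513074 (Actg2) and chr8:123892009-123892098 (Acta1). Capitals mark the 20 positions at which the 3 sequences are not all alike.
Acta2: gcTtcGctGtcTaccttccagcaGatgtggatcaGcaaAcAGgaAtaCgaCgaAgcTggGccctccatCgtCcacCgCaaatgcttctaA
Actg2: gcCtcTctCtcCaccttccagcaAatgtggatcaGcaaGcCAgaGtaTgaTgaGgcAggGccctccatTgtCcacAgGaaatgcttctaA
Acta1: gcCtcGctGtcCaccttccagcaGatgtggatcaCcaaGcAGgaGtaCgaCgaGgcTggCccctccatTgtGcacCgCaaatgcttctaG
The other 70 positions were identical. Over the whole coding sequence Acta2 was 85.4% identical to Acta1 and 84.4% to Actg2, and Actg2 was 85.1% identical to Acta1. Windows of 50 bases that also occur in transcripts of another gene made up 0.326% of those of Acta2, 2.02% of those of Acta1 and 0.340% of those of Myh11. The other 7 genes had 0 such windows, and none of those of Acta2 or Acta1 matched another of the 3 actins. The windows of Acta2 and Acta1 were shared with Actg1 and with actin pseudogenes, and those of Acta1 also with Actb.

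Tagln shares 108 exonic bases (5.43% of its own) with Pcsk7 on the opposite strand. The libraries were not stranded, so the reads of this overlap cannot be told apart, and Pcsk7 had between 91.8 (ESCs) and 777 (Day 2) normalized counts.

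**Figure D1:**
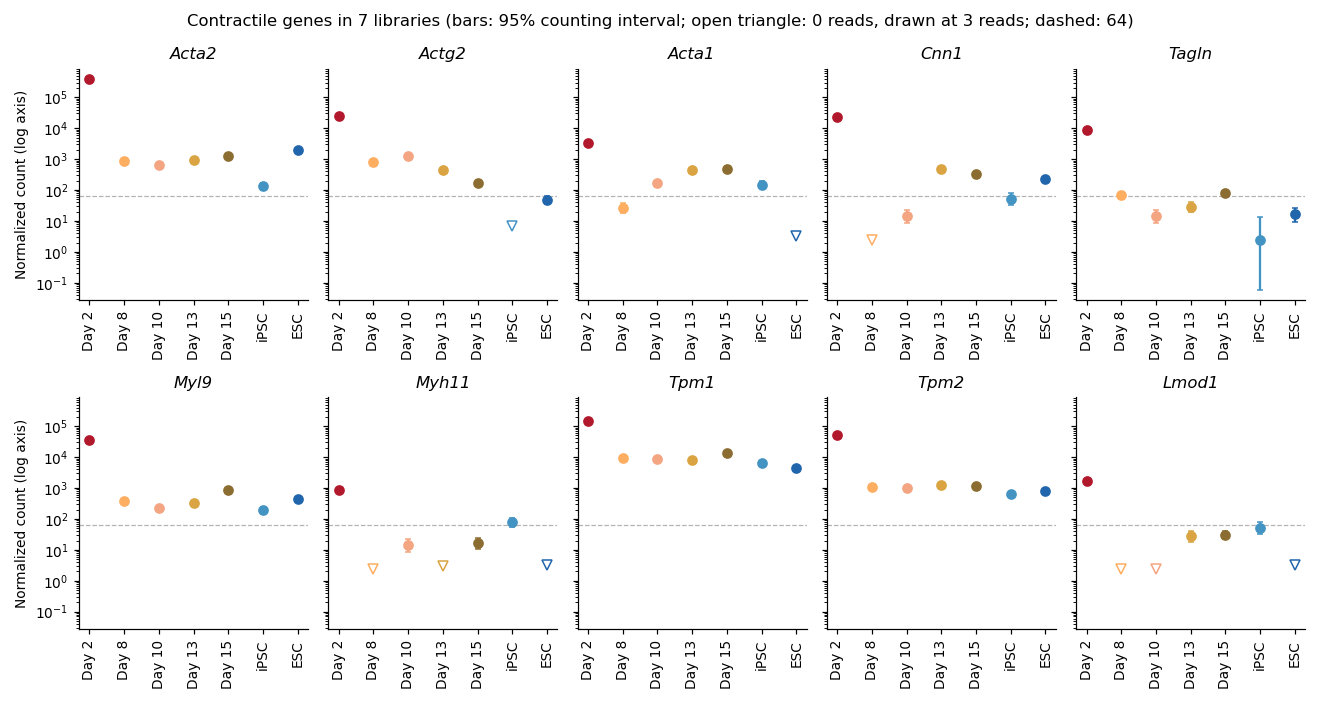
Normalized counts of the 10 genes (log axis) in the 7 libraries, 1 point per library, with 95% counting intervals as bars. Open triangles are libraries with 0 reads, drawn at the value of 3 reads, and the dashed line is at 64. In every panel the Day 2 point is the highest, and Myh11 and Lmod1 each have 3 open triangles.

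Acta2 (chr19:34241090-34255590, minus strand) encodes the alpha actin of vascular smooth muscle and is the usual marker of myofibroblasts. It had 386131 normalized counts at Day 2, 894 on Day 8, 641 at Day 10, 939 on Day 13, 1257 on Day 15, 134 in iPSCs and 1999 in ESCs. The Day 2 value, taken per kilobase of annotated exon, was the level of rank 5 among 23436 genes. Days 8 and 13 had overlapping counting intervals, and all other neighbours in the order of levels did not overlap. ESCs stood above every intermediate after Day 2, and iPSCs below all of them.

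Actg2 (chr6:83512905-83536265, minus strand), the gamma actin of visceral smooth muscle, had 25002 normalized counts at Day 2, 829.9 on Day 8, 1218.5 at Day 10, 447 on Day 13, 169.5 on Day 15, 0 in iPSCs and 48.6 in ESCs. Among the sorted intermediates its level was highest at Day 10 and lowest at Day 15. The iPSC library was the only one without a read, and 3 reads there are worth 7.03 normalized counts.

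Acta1 (chr8:123891769-123894751, minus strand) encodes the alpha actin of skeletal muscle. It had 3317 normalized counts at Day 2, 26.1 on Day 8, 172 at Day 10, 433 on Day 13, 470.2 on Day 15, 148 in iPSCs and 0 in ESCs. Within the sorted intermediates Acta1 and Actg2 thus ran in opposite directions after Day 10. Days 13 and 15 overlapped in their counting intervals for Acta1, as did Day 10 and iPSCs.

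Tpm1 (chr9:67022590-67049406, minus strand) and Tpm2 (chr4:43514711-43523765, minus strand) encode tropomyosins, the coiled coils that lie along actin filaments. Tpm1 also gives rise to non-muscle isoforms by splicing, which counts per gene do not separate. It had 147915 normalized counts at Day 2, 9512 on Day 8, 8674 at Day 10, 7790.3 on Day 13, 13203 on Day 15, 6419 in iPSCs and 4467 in ESCs. Tpm2 was at 52067 at Day 2, 1102.5 on Day 8, 996 at Day 10, 1274 on Day 13, 1120.4 on Day 15, 635 in iPSCs and 780.0 in ESCs. These were the 2 steadiest of the 10 genes after Day 2, with a range over the other 6 libraries of 1.56 (Tpm1) and 1.00 (Tpm2) on the log2 scale.

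Cnn1 (chr9:22099216-22109630, plus strand), which encodes the actin-binding protein calponin of smooth muscle, had 22216 normalized counts at Day 2, 0 on Day 8, 14.8 at Day 10, 479 on Day 13, 337 on Day 15, 51.5 in iPSCs and 233 in ESCs. No 2 neighbours in the order of its levels overlapped in their counting intervals.

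Tagln (chr9:45929619-45936058, minus strand), the gene of transgelin or SM22-alpha, was at 8932 normalized counts at Day 2, 70.2 on Day 8, 14.0 at Day 10, 29.3 on Day 13, 80.1 on Day 15, 2.34 (1 read) in iPSCs and 16.2 in ESCs. Only the Day 2, Day 8 and Day 15 libraries reached 64 normalized counts. Days 15 and 8 overlapped in their counting intervals, as did Day 13 with ESCs, ESCs with Day 10 and Day 10 with iPSCs.

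Myl9 (chr2:156775420-156781658, plus strand) encodes the regulatory myosin light chain of smooth muscle. It had 36150 normalized counts at Day 2, 366 on Day 8, 221 at Day 10, 338 on Day 13, 852 on Day 15, 201 in iPSCs and 443 in ESCs. Day 15 was the highest of the 6 later libraries. Day 10 and iPSCs, the 2 lowest, overlapped in their counting intervals.

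Myh11 (chr16:14194535-14291372, minus strand) and Lmod1 (chr1:135324807-135368065, plus strand) are among the genes most restricted to smooth muscle. They encode its myosin heavy chain and the actin filament nucleator leiomodin-1. Myh11 had 841 normalized counts at Day 2, 0 on Day 8, 14.0 at Day 10, 0 on Day 13, 16.3 on Day 15, 77.3 (33 reads) in iPSCs and 0 in ESCs. Lmod1 was at 1656 at Day 2, 0 at Days 8 and 10, 27.3 on Day 13, 30.8 on Day 15, 51.5 (22 reads) in iPSCs and 0 in ESCs. Both had their second highest level in iPSCs, which for Lmod1 overlapped Day 15 in counting interval, and both had 0 reads in ESCs. At Day 2 their levels per kilobase of exon were 111 (Myh11) and 419 (Lmod1), against 175834 for Acta2, 31110 for Myl9, 22809 for Tpm1 and 2160 for Acta1. Per length these 2 genes were the lowest of the 10 at Day 2.

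Every one of the 10 genes was at least 4-fold higher at Day 2 than in each of the other 6 libraries, a pattern met by 4.30% of the 16711 genes that reached 64 normalized counts somewhere (9.66% at a 2-fold gap). The gap was at least 16-fold for 7 of them, against 1.31% of genes, and the 3 others were Acta1 (7.05-fold), Myh11 (10.9-fold) and Tpm1 (11.2-fold).

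**Figure D2:**
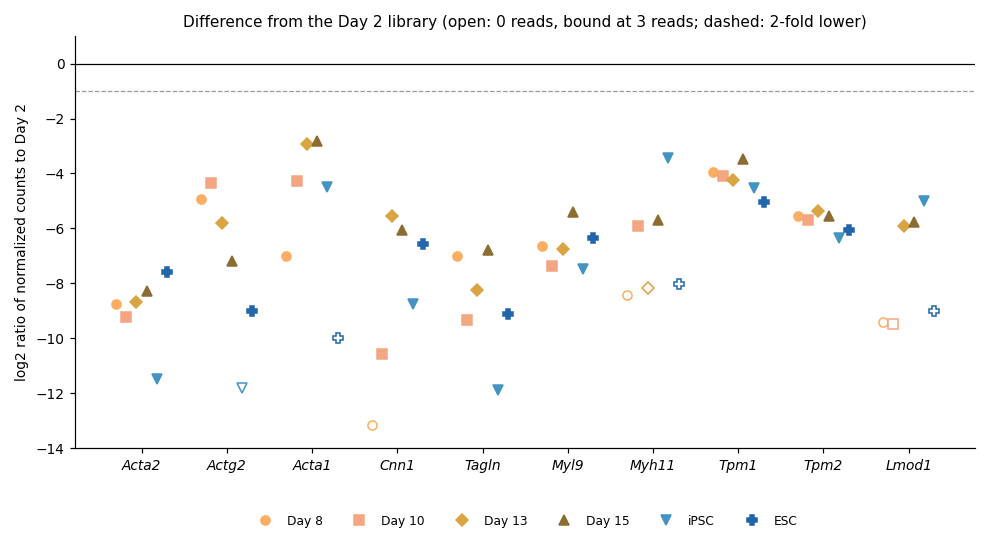
Log2 ratio of normalized counts to Day 2 for each of the 10 genes, 1 symbol per later library, with the dashed line at 2-fold lower. Open symbols have 0 reads and are bounds at 3 reads. Each symbol lies below the dashed line, and Tpm1 and Tpm2 have the narrowest spread.

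The comparison of each later library with Day 2 asks how far the contractile genes stand from their starting level at each stage. Genes were compared where the higher library had at least 64 normalized counts and were called at a 2-fold difference. No contractile gene was higher than at Day 2 in any of them. All 10 genes passed through the Day 2 library. Of them 6 also reached 64 on Day 8, 6 at Day 10, 7 on Day 13, 8 on Day 15, 6 in iPSCs and 5 in ESCs. The others passed only through Day 2 in that comparison, so that these could only be lower. The 6 comparisons share the Day 2 library.

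At Day 8 all 10 were lower than at Day 2, against 31.8% of 13475 genes compared (26.3% were higher). Tpm1 was 15.6-fold lower (15.3 to 15.8) and Actg2 30.1-fold lower (28.3 to 32.1). Tagln and Acta1, both 127-fold lower, had intervals of 103 to 159 and 89.8 to 186. Myl9 was 98.7-fold lower (89.9 to 109). With 0 reads at Day 8, Lmod1 was at least 676-fold lower and Myh11 at least 344-fold lower. The median log2 difference was -6.95 over the 10 genes (-6.99 with values under 3 reads set to 3), against -0.11 over all genes compared.

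At Day 10 all 10 were lower than at Day 2, against 25.0% of genes (27.2% higher), with a median of -6.58 (-6.63 with values under 3 reads set to 3) against 0.04. Cnn1 was 1506-fold lower (964 to 2501), Acta2 602-fold (562 to 645) and Tagln 639-fold (404 to 1079). At Day 13 all 10 were lower, against 23.2% of genes (29.1% higher), with a median of -5.84 (-5.86) against 0.07. Acta1 was 7.67-fold lower (6.94 to 8.48) and Cnn1 46.4-fold (42.4 to 50.9). At Day 15 all 10 were lower, against 23.1% of genes (29.7% higher), with a median of -5.66 (-5.72) against 0.12. Acta1 was 7.05-fold lower (6.53 to 7.62), Actg2 147-fold (131 to 166) and Myl9 42.4-fold (40.3 to 44.7).

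In iPSCs all 10 were lower than at Day 2, against 29.8% of genes (28.7% higher), with a median of -6.92 (-6.92) against 0.02. Acta2 was 2891-fold lower (2232 to 3818) and Cnn1 431-fold (285 to 688). Myh11, the nearest to its Day 2 level, was 10.9-fold lower (7.69 to 15.9). In ESCs all 10 were lower as well, against 29.8% of genes (29.1% higher), with a median of -8.29 (-7.81) against 0.03. Acta1 was at least 1023-fold lower, Actg2 514-fold (384 to 705) and Acta2 193-fold (185 to 202). The fibroblast marker sum was also below its Day 2 value of 874847 in each library, at 100234 on Day 8, 19500 at Day 10, 31853 on Day 13, 70662 on Day 15, 1846 in iPSCs and 3366 in ESCs. Of its 11 genes, 8 were lower and 2 higher at Days 8 and 15, 10 and 1 at Day 10, and 9 and 1 at Day 13. In iPSCs 11 were lower and in ESCs 10, with 0 higher in both. All 11 reached 64 normalized counts at Day 2. In iPSCs 5 did and in ESCs 7, so the rest could not be called higher there. The shares of all genes are those given above for each comparison. The part of the fibroblast markers in these differences was not tested. With reads scaled to total assigned reads (CPM), all 10 genes were lower in the 6 comparisons too, while the share of all genes called lower ranged from 15.6% (Day 15) to 27.1% (ESCs). Higher genes then made up 57.2% of all calls on Day 8 (45.3% as deposited), 67.2% at Day 10 (52.2%), 69.4% on Day 13 (55.7%), 71.7% on Day 15 (56.3%) and 59.1% in iPSCs (49.1%), and 41.0% between ESCs and iPSCs (51.4%).

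Between neighbouring stages after Day 2 the genes did not all differ in one direction. From Day 8 to Day 10, 7 of the 10 could be compared. Acta1 was higher at Day 10 (6.57-fold, 4.52 to 9.85), against 27.7% of genes higher, and Tagln was lower (5.02-fold, interval up to 8.87), against 18.8% lower. Each count, 1 of 7, was below the share of all genes. Acta1 passed the filter only through Day 10 and Tagln only through Day 8, which fixed their directions. Acta2, Actg2, Myl9, Tpm1 and Tpm2 stayed within 2-fold. The median was -0.15, against 0.05 over all genes compared. The fibroblast marker sum was 19500 at Day 10 and 100234 at Day 8, and the sum of 8 macrophage markers, C1qa among them, was 483 at Day 10 and 22724 at Day 8. Their part was not tested.

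At Day 13, against Day 10, 2 of 7 were higher (15.7% of genes were) and 1 was lower (9.51% were), with a median of 0.55 against 0.03. Cnn1 passed the filter only through Day 13, so it could only be higher. Cnn1 was 32.4-fold higher (20.5 to 54.3) and Acta1 2.52-fold higher (2.14 to 2.98), while Actg2 was 2.72-fold lower (2.45 to 3.03). Lmod1, below 64 in both, had 28 reads at Day 13 and 0 at Day 10. The fibroblast marker sum was 31853 on Day 13 and 19500 at Day 10, and the macrophage marker sum was 9635 on Day 13 and 483 at Day 10. Their part in the difference was not tested.

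At Day 15, against Day 13, 2 of 8 were higher (14.6% of genes were) and 1 was lower (13.1% were), with a median of 0.27 against 0.02. The count of lower genes was no more than the share of all genes. Tagln passed the filter only through Day 15, so it could only be higher. Tagln was 2.73-fold higher (1.83 to 4.20) and Myl9 2.52-fold higher (2.24 to 2.84), while Actg2 was 2.64-fold lower (2.27 to 3.07). The fibroblast marker sum was 70662 at Day 15 and 31853 at Day 13, and the macrophage marker sum 1814 at Day 15 and 9635 at Day 13. Neither was tested as a part of the difference.

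In iPSCs, against Day 15, 7 of 9 were lower (22.1% of genes were) and 1 was higher (7.83% were), with a median of -2.07 against -0.02. Actg2, Cnn1 and Tagln passed the filter only through Day 15 and could only be lower. Myh11 passed only through iPSCs and could only be higher. Acta2 was 9.41-fold lower (7.24 to 12.5), Cnn1 6.53-fold (4.27 to 10.5) and Myl9 4.23-fold (3.40 to 5.32), Acta1 was 3.19-fold lower, and Tpm1 passed narrowly at 2.06-fold (1.98 to 2.14). Actg2 was at least 24.1-fold lower, and Tagln, with 1 read in iPSCs, 34.2-fold lower (6.04 to 1360.3). Myh11 was 4.76-fold higher (2.79 to 8.17). The fibroblast marker sum was 1846 in iPSCs, with 4 of 11 genes at 0 reads, and 70662 at Day 15, with 0 of 11 at 0 reads. Its part was not tested.

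ESCs and iPSCs, the 2 pluripotent libraries, differed in these genes in both directions. Of 7 compared, 3 were higher in ESCs (14.5% of genes were) and 2 lower (13.7% were), with a median of 0.30 against 0.02. Cnn1 passed the filter only through ESCs and could only be higher there. Acta1 and Myh11 passed only through iPSCs and could only be lower in ESCs. Acta2 was 15.0-fold higher in ESCs (11.5 to 19.8), Cnn1 4.53-fold (2.91 to 7.38) and Myl9 2.20-fold (1.74 to 2.81). With CPM the log2 difference of Myl9 was 0.95, against 1.13 as deposited, which ends its 2-fold call. With mitochondrial reads left out of the total it was 1.25. Acta1 was at least 45.5-fold lower and Myh11 at least 23.9-fold lower, each with 0 reads in ESCs. Lmod1, not compared because both libraries were under 64, had 0 reads in ESCs and 22 in iPSCs. The fibroblast marker sum was 3366 in ESCs and 1846 in iPSCs, and its part was not tested. The libraries stood apart in mitochondrial reads, at 20.9% in ESCs and 2.79% in iPSCs, and in depth, at 37713139 assigned reads in ESCs and 15370903 in iPSCs.

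Most contractile proteins have cytoplasmic counterparts made in nearly all cells, and the share of a family's reads is free of the scaling between libraries. Shares are of reads, not corrected for gene length. The shares of a family add up to a fixed whole, so a gene's share can be higher in a library where its level is lower. Acta2 took 30.9% of the reads of 6 actin genes at Day 2 (30.8 to 30.9%), then 0.375% on Day 8 (0.353 to 0.397%), 0.323% at Day 10, 0.581% on Day 13, 0.747% on Day 15, 0.0780% in iPSCs (0.0591 to 0.101%) and 1.24% in ESCs (1.18 to 1.29%). Actb, the cytoplasmic beta actin, had between 80.2% (Day 10) and 89.8% (Day 8) in the later libraries and 57.8% at Day 2. Among regulatory light chains, beside Myl12a and Myl12b, Myl9 had between 1.37% (iPSCs) and 5.18% (Day 15) later and 39.9% at Day 2.

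The tropomyosin family differed in its make-up as well. Tpm2 took between 2.46% (iPSCs) and 5.13% (Day 13) of the reads of the 4 tropomyosin genes in the later libraries and 17.6% at Day 2. Tpm1 took 50.1% at Day 2 (49.9 to 50.3%), 24.1% on Day 8, 29.8% at Day 10, 31.4% on Day 13, 38.5% on Day 15 (38.1 to 38.9%), 24.8% in iPSCs and 21.8% in ESCs. Over the sorted intermediates its share was thus higher at each stage than at the one before. Tpm3, a tropomyosin of non-muscle cells as well as of slow muscle, took 56.8% in iPSCs and 51.6% in ESCs, against 6.23% at Day 2. A larger share is not by itself a higher level. Tpm4 took 26.0% at Day 2 and 42.0% on Day 8, with 76821 normalized counts at Day 2 and 16552 on Day 8.

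Cnn1 took 2.70% of calponin reads at Day 13, its highest later share, and 19.6% at Day 2 (19.4 to 19.9%). It had 0 of 6659 calponin reads at Day 8, which allows a share of up to 0.0451%. Cnn3, another calponin, took 93.1% in iPSCs and 28.4% at Day 2. Tagln took 0.789% or less of transgelin reads in the 6 later libraries, with Tagln2 at 94.9% or more, and 12.7% at Day 2. Myh11 took 1.55% of the reads of 4 myosin II heavy chains in iPSCs (1.07 to 2.17%) and 4.03% at Day 2. Myh14, a non-muscle heavy chain of epithelia, took 24.1% at Day 8 and had 0 reads at Day 2.

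**Figure D3:**
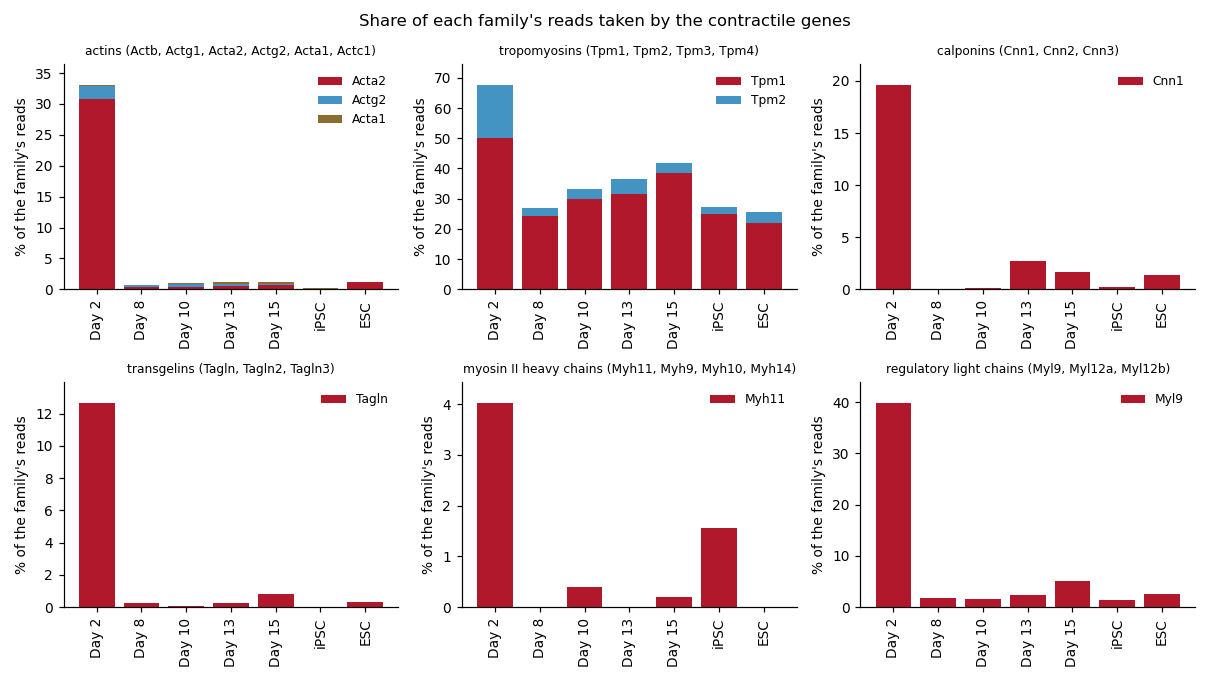
Share of each family's reads (percent, bars from 0, each panel with its own scale) taken by the contractile genes in the 7 libraries. The family members are named above each panel. The Day 2 bar is the tallest in all 6 panels, at 30.9% for Acta2 among actins and 39.9% for Myl9 among light chains.

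The genes of the same system outside the 10 were read from 4 lists. In these lists and in the marker lists, a gene under 64 in 1 library of a comparison passed only through the other. It could thus be called in 1 direction only. Of 27 other smooth muscle structural genes, 26 had a row and 24 could be compared at Day 8: 18 were lower than at Day 2 and 0 higher (31.8% and 26.3% of all genes), with a median of -2.95. In iPSCs 20 of 24 were lower and 1 higher (29.8% and 28.7% of all genes), with a median of -3.60 (-3.62 with values under 3 reads set to 3). Ldb3 and Jph2, a Z-disc adaptor and a junctional membrane protein of muscle, had 0 reads at Day 8, against 631 (Ldb3) and 399 (Jph2) normalized counts at Day 2. Pdlim3, an alpha-actinin partner, had 0 reads at Days 2 and 8. It was at 104 normalized counts at Day 10, 84.0 on Day 13, 295 on Day 15, 2.34 (1 read) in iPSCs and 317 in ESCs. The small heat shock gene Hspb1 was 2.22-fold higher in iPSCs than at Day 2 (2.13 to 2.30), and Cryab, its relative, was 25.9-fold lower (19.4 to 35.5). Synm, which encodes the intermediate filament protein synemin, was at 567 normalized counts at Day 8 and 317 at Day 2. Itga8, an integrin subunit of smooth muscle, was at 463.5 at Day 8 and 373 at Day 2. Both had 0 reads in iPSCs.

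The list of cytoplasmic counterparts also holds genes that are not made in nearly all cells, such as Tagln3, Myh14 and the leiomodins Lmod2 and Lmod3. Its median differences from Day 2 were smaller than those of the contractile genes. At Day 8, 11 of the 15 compared were lower and 2 higher (31.8% and 26.3% of all genes), with a median of -2.05. At Day 15, 8 of 16 were lower and 3 higher (23.1% and 29.7% of all genes), with a median of -1.39. In iPSCs 9 of 16 were lower and 2 higher (29.8% and 28.7% of all genes), with a median of -1.77. Cnn2 was 19.6-fold lower at Day 8 (18.9 to 20.2) and Tpm4 18.7-fold lower in iPSCs (17.8 to 19.6). Myl12b was 2.18-fold higher at Day 8 (2.10 to 2.27), and Tagln3, a transgelin of neurons, was 10.4-fold higher in iPSCs (7.68 to 14.4). Tmod2, which caps the slow end of actin filaments, had 0 reads at Day 8 and 332 normalized counts at Day 2.

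Among regulators, 12 of the 20 compared at Day 8 were lower than at Day 2 and 2 were higher (31.8% and 26.3% of all genes), with a median of -1.37. In iPSCs 13 of 19 regulators were lower and 1 higher (29.8% and 28.7% of all genes), with a median of -1.84. Myocd encodes myocardin, the SRF coactivator restricted to smooth and cardiac muscle. It had 667 normalized counts at Day 2, 0 reads at Days 8 and 10, 1 read on Day 13, 142 normalized counts on Day 15 and 0 reads in iPSCs and ESCs. Its Day 15 value was 4.69-fold below Day 2 (4.05 to 5.45). The cardiac marker list had the most genes detected at Day 15, with 6 of 10 genes at 64 or more and 0 of 10 at 0 reads. In each of the other 6 libraries 2 of 10 were at 64 or more. The myoepithelial and basal list also had the most at Day 15, with 4 of 4 genes at 64 or more. By summed normalized counts neither list peaked at Day 15. The cardiac sum was 1617 at Day 10 and 1224 on Day 15. The myoepithelial and basal sum was 10656 at Day 10 and 2844 on Day 15, the lowest of the sorted intermediates. Day 15 was also the deepest library, with 57021069 assigned reads. The part of these cell types and of depth in the Myocd value was not tested.

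Srf itself was at 462 normalized counts at Day 2, 2.45 (3 reads) on Day 8, 266 at Day 10, 491 on Day 13, 543 on Day 15, 216 in iPSCs and 189 in ESCs. The Day 8 value was 189-fold below Day 2 (64.2 to 918). It rests on 3 reads, in a library where 2.13% of strongly expressed genes had no read. At Day 15 Srf was 1.18-fold above Day 2 (1.06 to 1.31). The part of Srf in the contractile genes' values was not tested. Mkl1, the gene of MRTF-A, was at 335 to 1980 normalized counts in the later libraries and 2862.5 at Day 2, and Mkl2, the gene of MRTF-B, at 976 to 2205 later and 1832 at Day 2. These 2 genes were named after their values were seen.

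Klf4 is a repressor of smooth muscle genes in vascular cells and one of the vector's factors, and counts per gene do not separate vector from cellular transcripts. It had 282 normalized counts at Day 2, 7392 on Day 8, 4572 at Day 10, 1698 on Day 13, 891 on Day 15, 1633 in iPSCs and 939.9 in ESCs. Mef2c, a muscle transcription factor also active in other lineages, was 10.2-fold higher at Day 8 than at Day 2 (7.05 to 15.2). It had 289 normalized counts on Day 8, 1.55 (2 reads) at Day 10, 96.7 on Day 13 and 66.2 on Day 15. In iPSCs and ESCs it had 0 reads. The macrophage marker sum was 22724 on Day 8, 483 at Day 10, 9635 on Day 13 and 1814 on Day 15. It was 2200 in iPSCs and 1120 in ESCs. The part of macrophages in the Mef2c values was not tested. Diaph1, a formin that promotes actin assembly, was 1.55-fold higher at Day 8 (1.43 to 1.68). Of the transforming growth factor beta ligands, which induce the contractile state in fibroblasts, Tgfb3 was 23.1-fold lower at Day 8 (21.3 to 25.2) and 922-fold lower in iPSCs (395 to 2840). Tgfb3 was named for having 1 of the 2 lowest differences of its list in iPSCs. The list's other ligands, Tgfb1 and Tgfb2, were not named by that rule, so Tgfb3 does not stand for them.

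**Figure D4:**
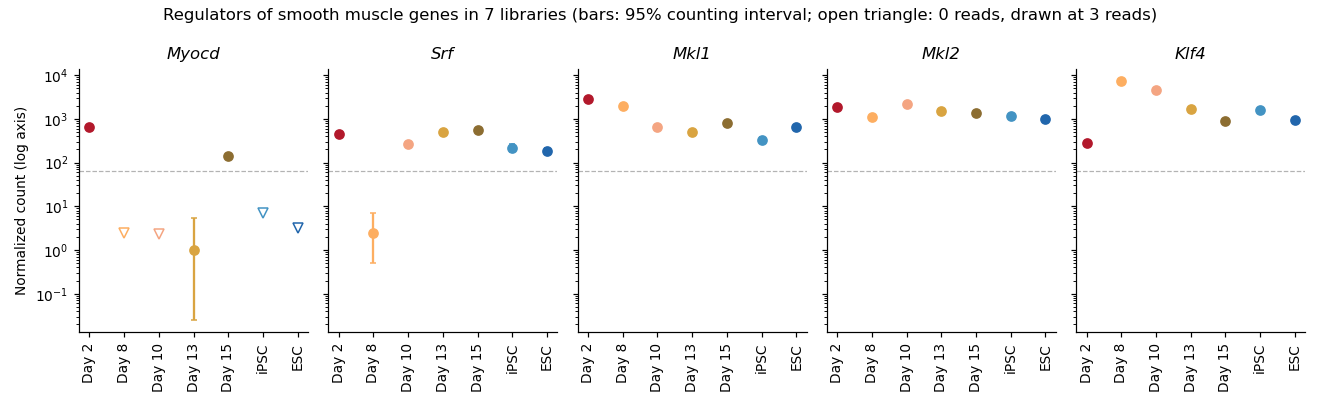
Normalized counts (log axis) of 5 regulators in the 7 libraries, drawn as for the contractile genes, with the dashed line at 64. Myocd is above the line at Day 2 (667) and Day 15 (142) only, Srf is lowest at Day 8 (2.45), and Klf4 is lowest at Day 2 (282).

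Known targets of MRTF and of the related mechanosensor YAP were lower in 9 and higher in 1 of 10 at Day 8, against 31.8% and 26.3% of all genes, with a median of -4.52. In iPSCs all 10 were lower, against 29.8% of all genes, with a median of -6.94 (-6.95 with values under 3 reads set to 3). Ankrd1, Axl and Crim1 among them were under 64 in iPSCs and could not be called higher. Thbs1, the matrix protein thrombospondin-1, was 169-fold lower at Day 8 (162 to 177). The cardiac ankyrin repeat gene Ankrd1 had 0 reads at Day 8 and 6182 normalized counts at Day 2. Axl, a receptor kinase, was at least 4042-fold lower in iPSCs. Crim1 was 3.43-fold lower at Day 8 (3.13 to 3.76) and Amotl2 12.5-fold lower in iPSCs (11.6 to 13.6). Tgm2, a transglutaminase, was the 1 higher gene, at 31052 normalized counts at Day 8 and 3485 at Day 2.

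**Figure D5:**
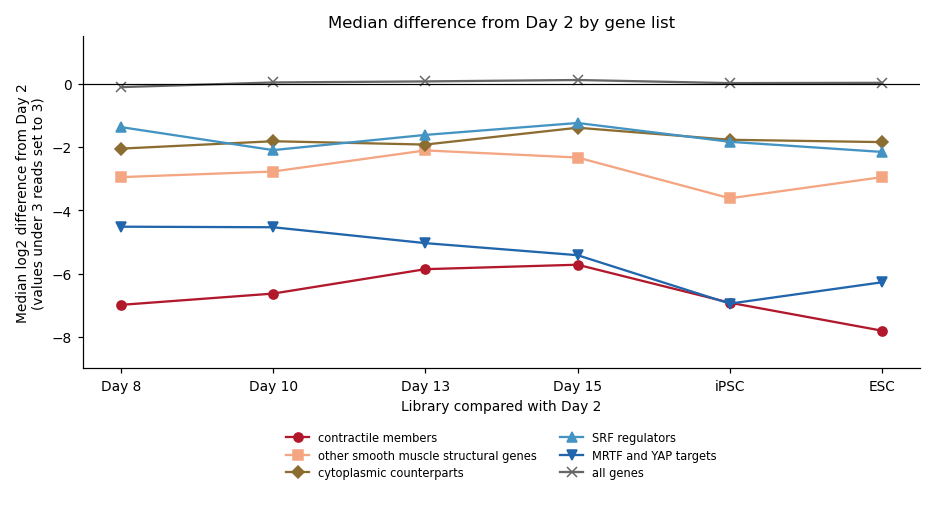
Median log2 difference from Day 2 (values under 3 reads set to 3) in each later library, 1 line per gene list and 1 for all genes compared. The contractile genes lie between -5.72 (Day 15) and -7.81 (ESCs), and all genes between -0.11 and 0.12.

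Markers of other muscle and of mural cells were read beside the contractile genes. The mural list of pericytes and vascular muscle had 6 of 9 genes at 64 or more at Day 2, with Cspg4 at 5609 normalized counts, Pdgfrb at 3827, Rgs5 at 315 and Kcnj8 at 0. Its sum was between 759 (iPSCs) and 2317 (Day 15) later and 11462 at Day 2. By gene the list was mixed. At Day 8, 5 of the 8 compared were lower than at Day 2 and 3 higher (31.8% and 26.3% of all genes). In iPSCs 4 of 6 were lower and 1 higher (29.8% and 28.7% of all genes). Of the skeletal muscle list, 9 of 14 genes had a row, and they summed to 151 at Day 2, with 6 at 0 reads. The cardiac list summed to 195 at Day 2, with 8 of 10 genes at 0 reads. The endothelial list had 0 reads at Day 2 in all 4 genes with a row. The epithelial list summed to 150852 at Day 8 and 114 at Day 2, and the list of myoepithelial and basal cells, which also contract with smooth muscle proteins, to between 159 (iPSCs) and 10656 (Day 10) later and 17.4 at Day 2. The part of these cell types in the contractile genes' values was not tested.

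The 10 other genes whose course over the 7 libraries lay closest to the mean course of the contractile genes were found by root mean square distance on the log2 scale, among 16701 genes. They were Gm15867 (distance 0.50), Gm43128 (0.56), Palm2 (0.59), Cxcl3 (0.67), Vamp5 (0.71), Htr2a (0.76), Gm2670 (0.78), Ptgs2 (0.80), Lancl3 (0.80) and Sytl5 (0.81). Pearson's r with that course was between 0.95 (Ptgs2) and 0.98 (Gm15867) over 7 libraries. Such values rest on the Day 2 library standing above the rest, since 9 of the 10 genes had 0 reads at Days 8 and 10. Ptgs2, the gene of cyclooxygenase-2, was the exception, at between 5.94 (Day 8) and 8.23 (iPSCs) on the log2 scale in the later libraries and 14.05 at Day 2. Within the contractile genes, Myl9 (0.76) and Tpm2 (0.82) lay closest to their own mean course and Actg2 (3.06) farthest.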

How the data were processed

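The submitters' processing notes name FastQC, STAR 2.5.3a, featureCounts and the build mm10 (GRCm38.p5). Per the labels' protocols cDNA was made from 500 pg of RNA. The authors deposited log2 values of scaled read counts plus 1. The sources used here do not say how the size factors were made. With the logarithm removed, 100% of values were whole multiples of 1 read (tolerance 0.01 reads), so reads were recovered. The recovery was also run on simulated whole counts, which checks the code and not the deposited values. Python 3.11.15, NumPy 2.4.6, SciPy 1.17.1 and Biopython 1.88 were used. Folds are ratios of normalized counts with Clopper-Pearson 95% intervals, levels have exact Poisson intervals, and a fold against 0 reads is a bound at 3 reads per library. Reads had no molecular identifiers, so intervals cover counting error only. Named list genes had the 2 highest and 2 lowest differences at Day 8 and in iPSCs. Genes and lists were chosen with earlier results of these data known. Alternatives changed scaling, low values, filter and threshold.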

Additional observations from a re-analysis of the deposited data

How the results depend on the processing

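All 10 genes stayed lower than at Day 2 in the 6 later libraries under each of the 6 alternatives: trimmed mean of M values, scaling to total assigned reads (CPM), values under 3 reads set to 3, no filter, a filter at 8 on the log2 scale and a 4-fold threshold. Between later stages the counts are small and moved. With no filter, 3 genes were higher at Day 10 than at Day 8, 4 higher and 2 lower at Day 13 than at Day 10, and 5 higher in ESCs than in iPSCs. With the filter at 8, 0 were higher and 0 lower at Day 10 than at Day 8, 1 was higher at Day 15 than at Day 13, 0 of them were above Day 15 in iPSCs, and 0 were lower in ESCs than in iPSCs. At 4-fold, 1 was higher and 0 lower at Day 13 than at Day 10, and 0 higher and 0 lower at Day 15 than at Day 13. By construction, each rule changes how many genes can pass. CPM kept each count of the 10 genes but one, the number higher in ESCs than in iPSCs, which was 2. A scaling without mitochondrial reads, added after seeing the data, kept each count. CPM moved the median of all genes relative to Day 2 by 0.46, 0.48, 0.45, 0.49, 0.36 and 0.16 at Days 8, 10, 13 and 15, in iPSCs and in ESCs, and reversed none of the genes' differences. The scalings of the other lists were chosen after seeing the data. No paired analysis was possible because each group is 1 library. The iPSC library is the shallowest, and 3 reads there equal 7.03 normalized counts, against 1.74 at Day 15.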

Other observations

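Single genes of striated muscle were read in the sorted and pluripotent libraries, beside the rest of their lists. In iPSCs 5 of 9 skeletal muscle genes had 0 reads and 2 of 10 cardiac genes reached 64 normalized counts, and at Day 15 it was 2 of 9 and 6 of 10. Mylpf, a light chain of fast skeletal muscle, had 83.2 normalized counts at Day 2, 363 on Day 8, 1225 at Day 10, 623 on Day 13, 2485 on Day 15, 5595 in iPSCs and 6518 in ESCs. Myh3, the embryonic skeletal myosin, was at 0 reads at Days 2 and 8, 652 normalized counts at Day 10 and between 171 (iPSCs) and 430.0 (ESCs) afterwards. Myl7, the atrial light chain, had 0 reads at Day 2, 619 normalized counts on Day 8, 1490.3 at Day 10, 669 on Day 13 and 106 on Day 15. Actc1, the cardiac actin, was at 229.5 on Day 13 and 324 on Day 15, and Nkx2-5, a cardiac transcription factor, had reads on Day 15 only (72.6 normalized counts). These 5 genes were picked after their values were seen, and no test was run.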
